A study of Homo sapiens with 6 samples.

Results

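The 10 genes described here encode the 5 NF-kB subunits (RELA, RELB, REL, NFKB1 and NFKB2), 3 IkB inhibitors that bind them (NFKBIA, NFKBIB and NFKBIE) and the 2 catalytic subunits of the IkB kinase (CHUK and IKBKB). They were picked out by gene symbol, a rule that uses no measured value, although the set was proposed with earlier results of these data known. All 10 were found among the 35106 rows of the deposited table. All 10 passed the filter on low counts, which kept 13718 genes. The cells were HCT116, a human colon carcinoma line of wild-type genotype per the labels. They were either left untreated (3 libraries) or given curcumin, the yellow polyphenol of turmeric, for 24 h (3 libraries). The labelled dose is 30, and its unit, printed in the labels as for a length, is read here as µM. The treatment of the controls is labelled none, and no solvent control is named in the sources used here. No source says whether replicates were separate cultures, so the p-values reflect the spread among these 6 libraries and that spread may be technical.

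NF-kB is a dimer of 2 related proteins that binds DNA and switches on genes of inflammation and survival. In resting cells IkB proteins hold it in the cytoplasm. In the canonical route the IkB kinase marks IkB for destruction, which frees dimers of RELA and p50, the product of NFKB1. In the non-canonical route the kinase MAP3K14 acts through CHUK, and the NFKB2 product is cut to p52, which pairs with RELB. Several of these genes are textbook targets of NF-kB itself, among them NFKBIA, NFKB1, NFKB2, RELB and REL.

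The start regions of 3 of the genes are shown because they carry the kappaB consensus, the sequence that NF-kB dimers bind, and because these genes had different outcomes below: NFKB1 fell, NFKB2 rose and NFKBIA was not called. Each window holds the 250 bases before to the 50 bases after a RefSeq start (GRCh38.p14), written 5′ to 3′ on the gene's strand, with matches to the kappaB consensus on either strand in capitals.
NFKB1, chr4:102501109-102501408, strand +: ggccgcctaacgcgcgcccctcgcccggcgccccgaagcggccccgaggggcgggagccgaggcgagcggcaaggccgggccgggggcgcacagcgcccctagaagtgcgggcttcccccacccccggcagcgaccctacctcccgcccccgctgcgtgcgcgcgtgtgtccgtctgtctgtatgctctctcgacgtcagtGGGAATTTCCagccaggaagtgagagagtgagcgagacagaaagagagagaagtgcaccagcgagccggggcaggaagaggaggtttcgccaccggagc
NFKB2, chr10:102395455-102395754, strand +: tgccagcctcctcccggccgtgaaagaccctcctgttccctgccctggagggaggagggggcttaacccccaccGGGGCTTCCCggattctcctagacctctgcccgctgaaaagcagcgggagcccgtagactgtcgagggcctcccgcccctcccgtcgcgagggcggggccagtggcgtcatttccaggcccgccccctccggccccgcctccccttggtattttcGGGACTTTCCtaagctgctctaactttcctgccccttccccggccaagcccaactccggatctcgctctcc
NFKBIA, chr14:35404700-35404999, strand -: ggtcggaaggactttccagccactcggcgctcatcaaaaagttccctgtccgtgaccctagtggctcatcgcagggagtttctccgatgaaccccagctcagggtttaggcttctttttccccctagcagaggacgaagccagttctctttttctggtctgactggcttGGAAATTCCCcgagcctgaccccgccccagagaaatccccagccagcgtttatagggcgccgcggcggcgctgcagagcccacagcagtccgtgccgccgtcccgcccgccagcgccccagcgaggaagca

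RefSeq windows were searched for 7 of the 10 genes (RELA, REL, NFKB1, NFKB2, NFKBIA, NFKBIB and CHUK), some with more than one start. For the members, windows on chromosome 8, where IKBKB lies, were left out of the search. The background over all genes made no such exclusion. The kappaB consensus was found in a window of 5 of them, and 3619 of 27305 genes with a window (13.3%) held it. The matches are shown here to compare their letters, with overlapping matches joined:
NFKB1: GGGAATTTCC
REL: GGGAAATTCCC
NFKB2, downstream start: GGGACTTTCC
NFKBIB, downstream start: GGGAATTTCCC
NFKBIA: GGAAATTCCC
The NFKB1 match lies 49 to 40 bases before its start. The REL match lies 47 to 37 bases before its own, and the NFKBIA match, which reads as the consensus on the opposite strand, 81 to 72 bases before its start. NFKB2 held a further match in the window of its downstream start, GGGGCTTCCC, and a middle start had GGGAATTCCCC and GGGGCTTTCC. NFKBIB had a further match after its start, GGGGGGCCCC. No match was found in the windows of RELA and CHUK, which says only that these letters are not in those windows. Matching letters are a description of the sequence, and binding was not measured. Genes with a match were found among those that rose (NFKB2, NFKBIB), those that fell (NFKB1, REL) and those not called (NFKBIA).

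The libraries held 16663562 to 20311769 counts. Normalisation used TMM factors, which match libraries on the bulk of their genes, which ran from 1.30 to 1.34 without and from 0.72 to 0.80 with curcumin. The 100 most abundant genes held 18.9% to 22.7% of an untreated library and 39.9% to 43.3% of a treated one. Every level is thus a share of what its library held. Of 12 epithelial markers, 8 reached 1 CPM (here a gene's count scaled by its library total) or more in all 6 libraries, among them EPCAM, KRT8, KRT18 and CDH1, and their list summed to 5783 to 6557 CPM without and 5368 to 6832 CPM with curcumin. The sum is carried by keratins, and 2 of the 8 were far lower with curcumin: CLDN4 at 339 to 484 CPM without and 21.0 to 46.4 CPM with it, and CDX2 at 32.4 to 35.2 and 6.14 to 9.33 CPM. The intestinal markers VIL1, CDX1, LGALS4 and CDH17 were not among the 8, and CDX1 had no count in 5 libraries. Of 14 markers of other cell types 4 reached 1 CPM in every library, and the list summed to 44.2 to 55.1 CPM without and 48.9 to 98.8 CPM with curcumin, with CD3E at 0 throughout and PTPRC at 0.42 CPM or less. The monocyte and endothelial genes CD14 and PECAM1 were at most 0.74 and 0.21 CPM in untreated cells. After curcumin CD14 was at 9.002 to 20.6 CPM and PECAM1 at 5.34 to 17.9 CPM. CD68 went from 3.08 to 4.43 CPM to 11.8 to 21.9 CPM. Others did not follow: VWF was at 1.54 to 2.56 and 1.32 to 2.50 CPM, COL1A1 at 34.3 to 40.2 and 11.2 to 26.8 CPM, and PDGFRB was at 0.52 CPM or less and then at 0. The part of these markers in the results below was not tested. Untreated replicate 2 was the lowest untreated library for most of the NF-kB target genes tested, as given below. Values without it are printed beside part of the results, and a result without such a value may still turn on it.

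After curcumin, 3 of the 10 genes rose, 3 fell and 4 were not called. NFKBIB rose from 34.7 ± 3.98 to 84.9 ± 9.12 CPM (SD, n = 3), RELB from 32.5 ± 13.5 to 74.8 ± 15.2 CPM and NFKB2 from 170.3 ± 52.0 to 282 ± 4.87 CPM. NFKB1 fell from 51.9 ± 2.97 to 28.1 ± 5.92 CPM, REL from 12.7 ± 2.47 to 7.30 ± 2.27 CPM and CHUK from 52.4 ± 13.3 to 37.2 ± 0.281 CPM. RELA, NFKBIA, NFKBIE and IKBKB did not pass the test. In these bulk libraries a change in the mix of cells and one in RNA per cell cannot be told apart. A gene was called at an adjusted p under 0.05 in the quasi-likelihood test of edgeR, curcumin over untreated, with Benjamini-Hochberg adjustment over all 13718 genes. CPM here and below are TMM-normalised unless stated otherwise, and a log2 fold change is curcumin over untreated, with its standard error. Across all genes 56.1% were called, 27.2% higher and 28.9% lower, so 6 called genes of 10 is a share near the background. The same 6 genes were those whose groups of libraries did not overlap, and 64.0% of all genes had groups that did not overlap. The median log2 fold change was −0.20 over the 10 genes and −0.037 over all genes tested. Without curcumin replicate 1 or 2, NFKB1 alone was called lower, and the same 3 genes were higher.

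**Figure D1:**
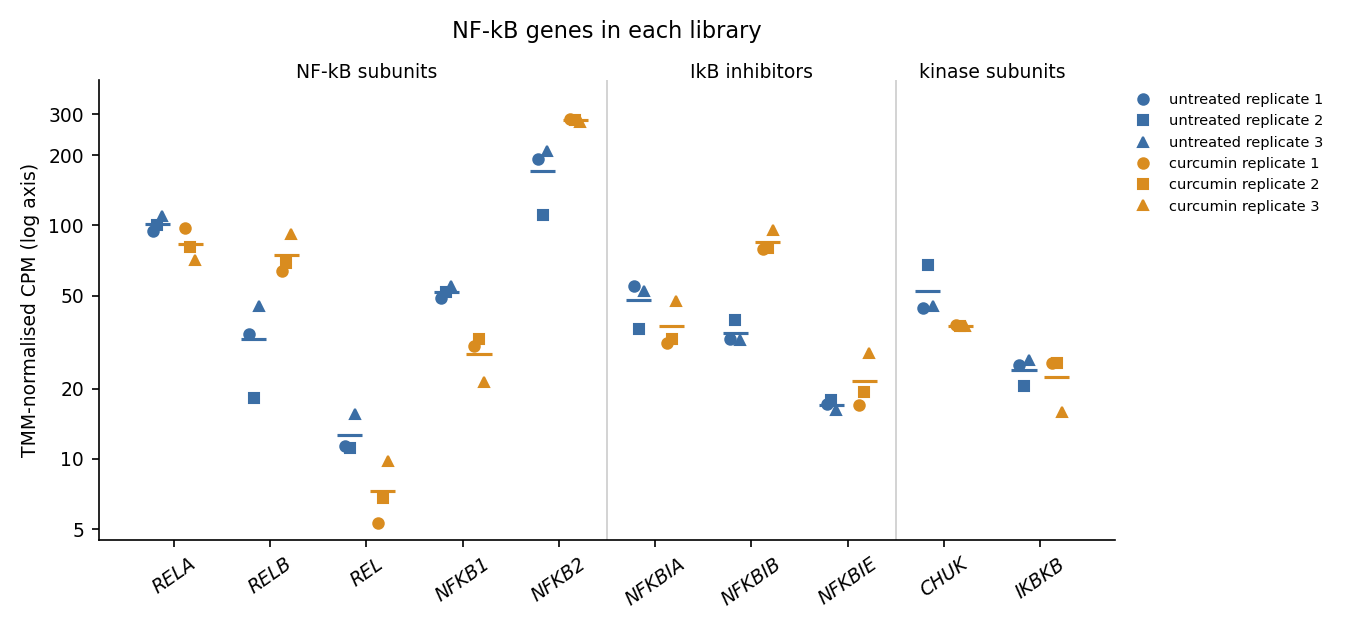
TMM-normalised CPM (log axis) of the 10 NF-kB genes in the 3 untreated (blue) and 3 curcumin (orange) libraries. Marker shape gives the replicate and bars give group means. NFKB2, RELB and NFKBIB lay higher in all 3 treated libraries than in any untreated one, and NFKB1, REL and CHUK lay lower.

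Among the subunits, RELA and NFKB1 encode the partners of the canonical dimer. RELA (chromosome 11, 65653596 to 65663094, minus strand, GENCODE 29 on GRCh38, ENSG00000173039) stood at 94.9, 101 and 109.9 CPM in untreated and at 97.0, 81.1 and 71.2 CPM in treated libraries. Curcumin replicate 1 lay within the untreated range and the other treated libraries lay below it. The log2 fold change was −0.29 ± 0.15 with a 95% interval of −0.64 to 0.050 (edgeR adjusted p = 0.13).

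NFKB1 (chromosome 4, 102501329 to 102617302, plus strand, ENSG00000109320), whose product p105 is processed to p50 and as p105 also acts as an inhibitor, stood at 48.9, 52.0 and 54.9 CPM in untreated libraries. In treated libraries it stood at 30.4, 32.5 and 21.3 CPM. All 3 treated libraries lay below all untreated ones, with the lowest value in curcumin replicate 3. The gene fell by 0.89 ± 0.18 on the log2 scale (edgeR adjusted p = 0.0023), a 1.85-fold difference. It was called lower in all 15 alternative analyses, with log2 fold changes from −1.68 to −0.61.

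REL encodes c-Rel, a subunit best known from lymphocytes. It lies on chromosome 2 (60881521 to 60931610, plus strand, ENSG00000162924) and was the lowest of the 10 genes, at 11.4, 11.1 and 15.5 CPM in untreated and 5.31, 6.83 and 9.77 CPM in treated libraries. The groups did not overlap, although curcumin replicate 3 came close to the lower untreated libraries. REL fell by 0.79 ± 0.27 on the log2 scale (edgeR adjusted p = 0.030). The call did not survive dropping untreated replicate 1 (edgeR adjusted p = 0.052) or 3 (0.12), nor curcumin replicate 1 (0.089) or 2 (0.084). After the trend of counts on transcript length had been taken out of each library, the REL log2 fold change was 0.057 (edgeR adjusted p = 0.85). The longest coding transcript of REL has 11255 bases, against 1558 to 4085 bases for the other 9 genes.

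NFKB2 and RELB, the pair of the non-canonical route, were both higher after curcumin. NFKB2 (chromosome 10, 102394110 to 102402529, plus strand, ENSG00000077150) stood at 192, 111 and 208 CPM in untreated libraries and at 287, 283 and 277 CPM in treated ones. The treated libraries were close together and above all untreated ones, while untreated replicate 2 was far below the other untreated libraries. NFKB2 rose by 0.73 ± 0.21 on the log2 scale (edgeR adjusted p = 0.014). Without untreated replicate 2 the rise was 0.48 ± 0.12 (edgeR adjusted p = 0.011). When libraries were scaled by their size alone, with no TMM, the log2 fold change was −0.071 (edgeR adjusted p = 0.78), so the rise of NFKB2 is one relative to the bulk of genes.

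RELB (chromosome 19, 45001430 to 45038198, plus strand, ENSG00000104856) stood at 34.3, 18.2 and 44.9 CPM in untreated and at 63.5, 68.8 and 92.0 CPM in treated libraries. Again untreated replicate 2 was the lowest, and every treated library was above every untreated one. RELB rose by 1.20 ± 0.29 on the log2 scale (edgeR adjusted p = 0.0057), a 2.30-fold difference, and by 0.90 ± 0.21 without untreated replicate 2 (edgeR adjusted p = 0.0078). Scaled by library size alone the difference was 0.39 (edgeR adjusted p = 0.23).

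The IkB inhibitors differed from one another. NFKBIA encodes IkB-alpha, the inhibitor that NF-kB itself induces in a fast feedback loop. It lies on chromosome 14 (35401511 to 35404749, minus strand, ENSG00000100906) and stood at 54.8, 35.9 and 52.5 CPM in untreated and at 31.4, 32.7 and 47.5 CPM in treated libraries. Untreated replicate 2 and curcumin replicate 3 each lay within the range of the opposite group. The log2 fold change was −0.36 ± 0.22 (edgeR adjusted p = 0.19). NFKBIA was called lower without curcumin replicate 3 (−0.57, edgeR adjusted p = 0.031) and, at −0.92, after removal of the length trend (edgeR adjusted p = 0.0063). Without untreated replicate 2 it was −0.54 (edgeR adjusted p = 0.054).

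NFKBIB encodes IkB-beta, which is not a part of that fast loop. It lies on chromosome 19 (38899700 to 38908893, plus strand, ENSG00000104825) and stood at 32.6, 39.3 and 32.2 CPM in untreated and at 78.9, 80.3 and 95.4 CPM in treated libraries. The groups were widely apart, with the lowest treated library far above the highest untreated one. NFKBIB rose by 1.29 ± 0.16 on the log2 scale (edgeR adjusted p = 0.00010), a 2.45-fold difference with a 95% interval of 0.94 to 1.64 on the log2 scale. It was the only one of the 10 genes called higher in all 15 alternatives, library size alone included (0.48, edgeR adjusted p = 0.023). Exons of NFKBIB overlap exons of SIRT2 on the opposite strand, and whether the counting used strand is not given in the sources used here. SIRT2, a deacetylase gene, went from 14.2 ± 2.36 to 26.4 ± 6.30 CPM with curcumin (log2 fold change 0.89 ± 0.22, edgeR adjusted p = 0.0065, and 0.057 with the length trend taken out). Under library size alone SIRT2 was at 0.10 (edgeR adjusted p = 0.74), and its call was also lost without the 100 most abundant genes (edgeR adjusted p = 0.073). The part of shared reads in the NFKBIB value was not tested.

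NFKBIE encodes IkB-epsilon, on chromosome 6 (44258166 to 44265788, minus strand, ENSG00000146232). It stood at 17.1, 17.8 and 16.3 CPM in untreated and at 16.97, 19.3 and 28.5 CPM in treated libraries. Curcumin replicate 1 lay within the untreated range, replicate 2 just above it and replicate 3 well above it, and the log2 fold change was 0.34 ± 0.22 (edgeR adjusted p = 0.21). Without that library it was 0.090 (edgeR adjusted p = 0.68).

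Neither kinase subunit gave a firm change. CHUK, which encodes IKK-alpha (chromosome 10, 100188298 to 100229619, minus strand, ENSG00000213341), stood at 44.5, 67.7 and 45.0 CPM in untreated and at 37.5, 37.1 and 37.0 CPM in treated libraries. The treated values were almost identical, and untreated replicate 2 was far above the other untreated libraries. CHUK fell by 0.49 ± 0.19 on the log2 scale (edgeR adjusted p = 0.046), a call just inside the threshold. It was lost in 10 of 15 alternatives, among them the fit without untreated replicate 2 (−0.28, edgeR adjusted p = 0.14), that with the replicate number as a block (−0.47, edgeR adjusted p = 0.051), DESeq2 (adjusted p = 0.058) and limma-voom (adjusted p = 0.062). CHUK also shares exon positions with ERLIN1 on the same strand, and ERLIN1 fell by 0.57 ± 0.14 on the log2 scale (edgeR adjusted p = 0.0061, and 0.88 with the length trend taken out). The part of shared reads in the CHUK value was not tested.

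IKBKB, which encodes IKK-beta, the main canonical kinase (chromosome 8, 42271302 to 42332653, plus strand, ENSG00000104365), stood at 25.2, 20.5 and 26.4 CPM in untreated libraries. In treated libraries it stood at 25.7, 25.6 and 15.8 CPM. The groups overlapped, with curcumin replicate 3 alone below the untreated range (log2 fold change −0.10 ± 0.22, edgeR adjusted p = 0.71). The 95% interval, −0.59 to 0.39, covers changes in either direction.

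**Figure D2:**
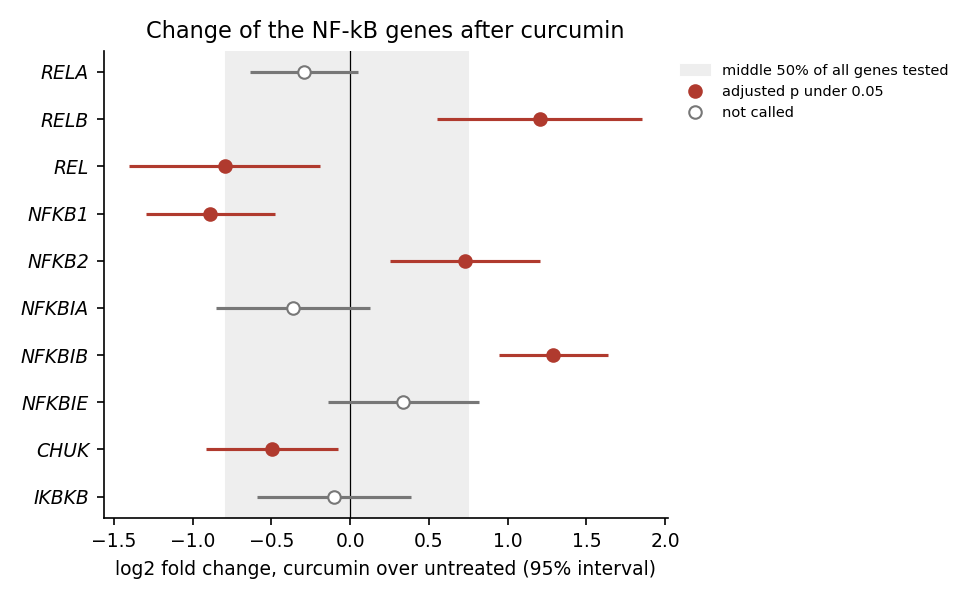
Log2 fold change of each gene, curcumin over untreated, with its 95% interval from edgeR's quasi-likelihood fit. Filled red points passed an adjusted p of 0.05 and open grey points did not. The grey band spans the middle 50% of all 13718 genes tested (−0.79 to 0.75), and RELB, NFKBIB, NFKB1 and REL lie outside it.

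The scaling moved all 10 genes together. Under library size alone the median of all genes moved by −0.80 on the log2 scale, and each of the 10 genes by −0.82 to −0.79. On that scale 1 gene was called higher (NFKBIB) and 6 lower (RELA, REL, NFKB1, NFKBIA, CHUK and IKBKB), where 9.62% of all genes were called higher and 56.5% lower. Leaving the 100 most abundant genes out of the library size gave log2 fold changes of −0.65 for RELA and −0.73 for NFKBIA, both called lower (edgeR adjusted p = 0.0063 and 0.013), and 0.36 for NFKB2, which was not called (edgeR adjusted p = 0.17). The differences among the 10 fold changes therefore hardly moved with this choice, while their position against zero did. Removing the length trend acted on each gene separately, with shifts from −0.56 for NFKBIA, the shortest transcript of the 10, to 0.85 for REL, the longest.

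**Figure D3:**
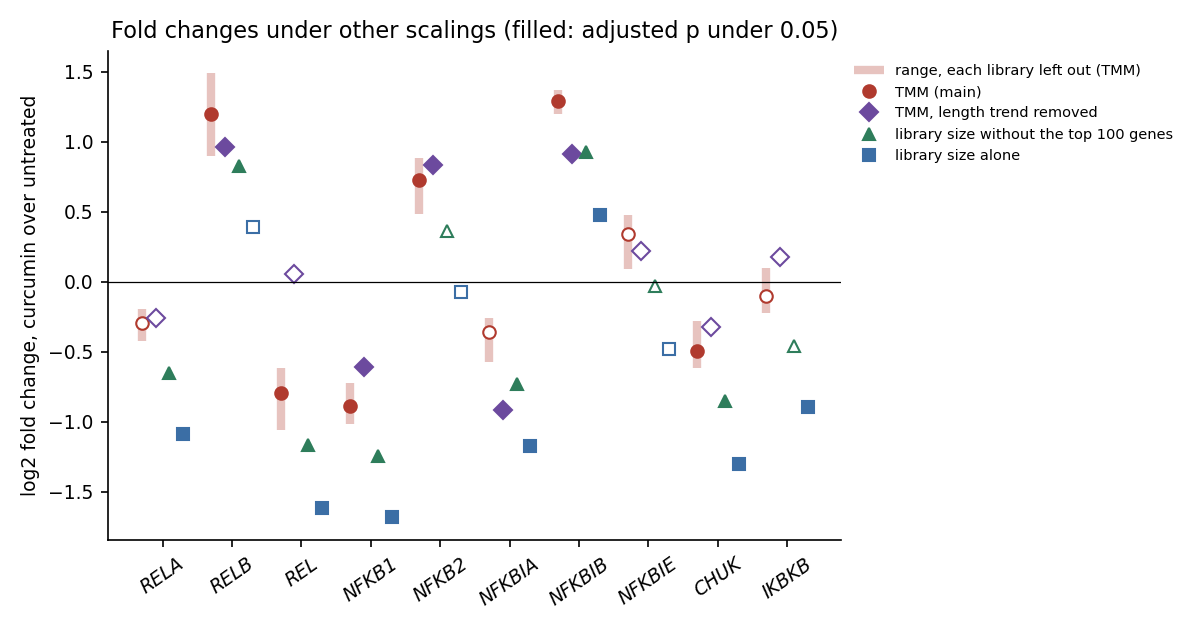
Log2 fold change of the 10 genes under TMM scaling (red, with the range when each library is left out), with the length trend removed (purple), with the 100 most abundant genes left out of the library size (green) and with library size alone (blue). Filled symbols passed an adjusted p of 0.05. NFKB1 and NFKBIB keep their sign and call throughout, NFKB2 ends at −0.071 under library size alone, and REL ends at 0.057 with the length trend removed.

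Ratios between 2 genes of the same library do not depend on the scaling. They were not corrected for the length trend, whose removal shifted each gene separately. The log2 ratio of NFKB2 to NFKB1 counts was 1.97, 1.09 and 1.92 in untreated and 3.24, 3.12 and 3.70 in treated libraries. All treated libraries were higher, by 1.69 on average. The log2 ratio of RELB to RELA was −1.47, −2.47 and −1.29 in untreated and −0.61, −0.24 and 0.37 in treated libraries, a difference of 1.58, again without overlap. Untreated replicate 2 was the lowest library for both ratios, and without it the differences were 1.41 and 1.22. For each of these, a two-sided exact permutation test gave p = 0.1, the smallest that 3 against 3 libraries allow (0.2 adjusted over the 4 ratios examined). The log2 ratio of NFKBIA to RELA was −1.11 ± 0.35 in untreated and −1.17 ± 0.53 in treated libraries (SD, n = 3; exact permutation p = 0.9). The log2 ratio of CHUK to IKBKB was 1.10 ± 0.54 and 0.77 ± 0.40 (exact permutation p = 0.5), with overlap between the groups for both. With the length trend removed, the log2 fold changes were −0.92 for NFKBIA and −0.26 for RELA, and −0.32 for CHUK and 0.18 for IKBKB. NFKB2 was then at 0.84, NFKB1 at −0.61 and RELB at 0.96.

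Levels of different genes were compared as CPM per kilobase of the longest coding transcript. In untreated cells NFKB2 was the highest of the 10, at 49.9 ± 15.2 CPM per kilobase, followed by RELA (32.0 ± 2.37) and NFKBIA (30.6 ± 6.60). The ranges of these 3 genes overlapped across libraries, although NFKB2 was above RELA in 6 of 6 libraries. NFKBIB (18.0 ± 2.06), CHUK (14.5 ± 3.66), RELB (14.2 ± 5.87) and NFKB1 (12.7 ± 0.728) followed, each overlapping its neighbour in this order, and NFKBIB lay below NFKBIA without overlap. NFKBIE (6.61 ± 0.302) and IKBKB (5.90 ± 0.769) overlapped each other and lay below NFKB1. REL came last at 1.12 ± 0.219 CPM per kilobase, a level that rests on its long transcript.

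After curcumin the order was different. NFKB2 led at 82.7 ± 1.43 CPM per kilobase, now without overlap with any other member, and NFKBIB came next at 44.0 ± 4.73. RELB (32.6 ± 6.62), RELA (26.1 ± 4.09) and NFKBIA (23.9 ± 5.72) followed with overlapping neighbours. CHUK (10.3 ± 0.0774), NFKBIE (8.36 ± 2.35), NFKB1 (6.87 ± 1.45) and IKBKB (5.50 ± 1.40) formed a lower group whose neighbours overlapped, and REL was at 0.649 ± 0.202. Among 5 subunits, NFKB2 made up 44.7 ± 6.03% of the per-kilobase total in untreated and 55.5 ± 1.17% in treated libraries. RELB made up 12.5 ± 2.98% and 21.9 ± 4.36%, RELA 29.9 ± 6.08% and 17.5 ± 2.69%, and NFKB1 11.9 ± 2.55% and 4.62 ± 1.005%. Each of these 4 shares was separated between the groups in all libraries. Among the 3 inhibitors, NFKBIA made up 55.1 ± 7.995% in untreated and 31.1 ± 2.10% in treated libraries, and NFKBIB 32.9 ± 6.55% and 58.1 ± 3.26%, both without overlap between the groups. The NFKBIE share was 12.0 ± 1.45% and 10.8 ± 1.21%, with overlap. These shares were chosen after the values were seen and carry no test. Levels and shares per kilobase were not corrected for the length trend, whose removal shifted the members' log2 fold changes by −0.56 to 0.85.

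**Figure D4:**
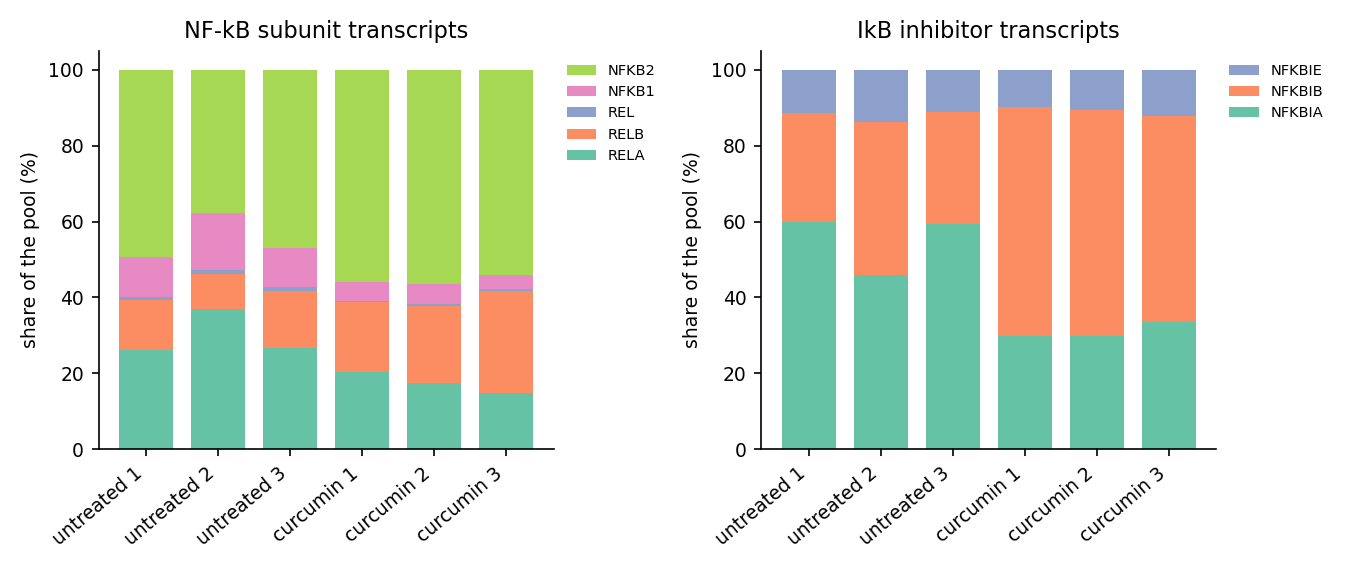
Share of each gene (%) in the summed CPM per kilobase of the 5 subunits (left) and of the 3 IkB inhibitors (right), one bar per library. NFKB2 and RELB take larger shares in the 3 treated libraries and RELA and NFKB1 smaller ones, and NFKBIB replaces NFKBIA as the most abundant of the inhibitors.

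Among all genes tested, those closest to NFKBIB, the called member with the largest fold change, were AKT1S1, RBM42 and UTP6. Their centred log2 CPM profiles lay within a root mean square distance of 0.036, 0.061 and 0.063 of its own over 6 libraries. AKT1S1, an inhibitor within the mTOR complex, stood at 80.3, 100.2 and 80.6 CPM in untreated and 199, 206 and 254 CPM in treated libraries. Like NFKBIB it was highest in replicate 2 among the untreated and in replicate 3 among the treated libraries, a likeness by which it was picked.

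The wider pathway was described with 62 other regulators, all matched and 59 of them tested. Of these 12 rose and 26 fell, a called share of 64.4% against 56.1% of all genes, with a median log2 fold change of −0.38. On the library-size scale the counts were 0 higher and 40 lower, where 9.62% of all genes were called higher and 56.5% lower. Of 9 receptors, 1 rose and 4 fell. The TNF receptor TNFRSF1A fell from 124 ± 4.17 to 36.4 ± 4.35 CPM (log2 −1.77 ± 0.15, edgeR adjusted p = 1.6e-05), with all treated libraries at 31.6 to 40.1 CPM. Of 18 adaptors and receptor-proximal kinases, 2 rose and 10 fell. TRAF6, the ubiquitin ligase of interleukin-1 and Toll-like receptor signalling, fell from 18.9 ± 2.43 to 4.35 ± 2.13 CPM, and TRAF3, which restrains MAP3K14 in resting cells, from 64.6 ± 4.17 to 24.7 ± 5.81 CPM. TRAF2 fell by 0.62 ± 0.21 on the log2 scale (edgeR adjusted p = 0.029), which did not pass when untreated replicate 2 (edgeR adjusted p = 0.099), curcumin replicate 2 (0.082) or curcumin replicate 3 (0.051) was dropped.

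Of 9 kinases and kinase partners above the inhibitors, 1 rose and 5 fell. The riser was MAP3K14, the kinase of the non-canonical route, from 16.7 ± 1.80 to 30.8 ± 2.62 CPM (0.88 ± 0.17, edgeR adjusted p = 0.0015), where untreated libraries held 15.4 to 18.8 CPM and treated ones 27.9 to 32.9 CPM. Its log2 fold change was 0.075 under library size alone (edgeR adjusted p = 0.74). IKBKG, the regulatory subunit of the IkB kinase, fell from 20.7 ± 1.18 to 13.3 ± 3.79 CPM (edgeR adjusted p = 0.033). Dropping any library but curcumin replicate 1 ended the call of IKBKG (edgeR adjusted p from 0.058 to 0.098). MAP3K7, the kinase TAK1, was at 42.5 ± 4.51 and 36.0 ± 2.21 CPM (edgeR adjusted p = 0.21).

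Beside these counts by role stand 27.2% of all genes higher and 28.9% lower. Of 5 genes that build ubiquitin chains, 3 rose and 0 fell, one of them, UBE2N, just inside the threshold (edgeR adjusted p = 0.048), and none was higher under library size alone. They included UBE2V1 (0.88 ± 0.14, edgeR adjusted p = 0.00045, and 0.071 with library size alone). Of 5 genes of the ligase that destroys IkB proteins, 0 rose and 3 fell. BTRC, the subunit that recognises marked IkB, fell from 45.3 ± 2.92 to 20.96 ± 2.84 CPM (log2 −1.11 ± 0.16, edgeR adjusted p = 0.00032). Among 13 negative regulators 4 rose and 3 fell. TAX1BP1, an adaptor of the ubiquitin editor TNFAIP3, rose by 0.91 ± 0.14 (0.10 with library size alone). CYLD, a deubiquitinase, rose from 14.2 ± 1.998 to 26.6 ± 10.9 CPM (log2 0.91), a value that was 0.52 without curcumin replicate 3 and a call lost without untreated replicate 1 or 2 (edgeR adjusted p = 0.063 and 0.059) and under library size alone (0.79). TNFAIP3 itself was at 6.14 ± 1.47 and 8.30 ± 1.03 CPM (log2 0.43, and 0.24 without untreated replicate 2, edgeR adjusted p = 0.19 and 0.45) and TNIP1 at 50.9 ± 8.997 and 38.3 ± 10.2 CPM (edgeR adjusted p = 0.13). Of the 3 atypical nuclear inhibitors, 1 rose and 1 fell. NFKBID, named after its value was seen, fell from 3.78 ± 0.785 to 1.43 ± 0.737 CPM (edgeR adjusted p = 0.024). NFKBIZ rose from 12.7 ± 6.56 to 28.9 ± 7.23 CPM (edgeR adjusted p = 0.018), with a log2 fold change of 1.19 that was 0.84 without untreated replicate 2. The call was lost without untreated replicate 1 (edgeR adjusted p = 0.058) and with library size alone (0.38, edgeR adjusted p = 0.35). BCL3 was at 36.2 ± 8.99 and 27.9 ± 7.12 CPM (log2 −0.38, and −0.58 without untreated replicate 2, edgeR adjusted p = 0.21 and 0.054). MAP3K7, TNIP1 and BCL3 were called lower under library size alone and when the 100 most abundant genes were left out of it (edgeR adjusted p = 0.0065, 0.015 and 0.027 in the latter), TNIP1 also without curcumin replicate 1 (edgeR adjusted p = 0.043). With the length trend removed TNFAIP3 was called higher (0.77) and BCL3 lower (−0.71).

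Textbook NF-kB target genes, a list of 51 of which 50 were matched, were mostly at low counts. Only 28 were tested, and 7 of the genes are also on the regulator list. Of the 28, 6 rose and 6 fell, a called share of 42.9% against 56.1% of all genes, with a median log2 fold change of −0.19. On the library-size scale 0 were higher and 16 lower, where 9.62% of all genes were called higher and 56.5% lower. Under TMM the split moved with single libraries. Without untreated replicate 2 it was 4 higher and 9 lower, and without untreated replicate 3 it was 8 higher and 4 lower. Without untreated replicate 1 it was 3 and 5, and without curcumin replicate 1 it was 3 and 6. The other 22 matched genes had at most 80 counts in any library. The apoptosis inhibitor BIRC3 fell from 9.37, 3.50 and 9.25 CPM in untreated to 1.35, 0.79 and 0.63 CPM in treated libraries (log2 −2.99 ± 0.50, edgeR adjusted p = 0.00063). Untreated replicate 2 was the lowest untreated library, and still above all treated ones. TNFAIP8 fell by 1.57 ± 0.30 on the log2 scale, and the survival gene BCL2L1 fell by 0.61 ± 0.17 (edgeR adjusted p = 0.0015 and 0.013). CD83, a surface protein of activated immune cells, rose from 9.92 ± 1.69 to 24.8 ± 4.58 CPM (edgeR adjusted p = 0.00056, and 0.054 with library size alone).

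Of 9 chemokine genes on the list, 4 were tested, and their adjusted p-values under TMM scaling ran from 0.051 to 0.91. CXCL8 stood at 7.09, 2.55 and 13.1 CPM in untreated and 4.49, 5.24 and 7.74 CPM in treated libraries (edgeR adjusted p = 0.54). CXCL1 stood at 7.24, 2.30 and 12.0 CPM in untreated and 6.58, 5.79 and 8.13 CPM in treated libraries (edgeR adjusted p = 0.91). For both, the untreated libraries spanned a wider range than the treated ones, and untreated replicate 2 was the lowest of all 6. Without that library the log2 fold changes were −0.81 for CXCL8 and −0.50 for CXCL1 (edgeR adjusted p = 0.088 and 0.19). The other tested chemokines, named after their values were seen, lay on opposite sides of zero, with log2 fold changes of −1.71 ± 0.67 for CXCL2 (edgeR adjusted p = 0.051) and 1.04 ± 0.70 for CXCL3 (edgeR adjusted p = 0.23). CXCL10, CCL2, CCL5 and CX3CL1 were not tested, with at most 22 counts in any library. The adhesion molecule ICAM1 was at 6.38 ± 3.79 and 4.63 ± 1.38 CPM (edgeR adjusted p = 0.44), and was called lower without untreated replicate 2 (−0.88, edgeR adjusted p = 0.0497). SOD2, a mitochondrial superoxide dismutase, was at 81.7 ± 11.9 and 71.8 ± 7.36 CPM (edgeR adjusted p = 0.35). CXCL8, ICAM1 and SOD2 were called lower under library size alone, SOD2 also when the 100 most abundant genes were left out of the library size (edgeR adjusted p = 0.012). CCL20 had at most 3 counts in any library.

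Untreated replicate 2 was the lowest of the untreated libraries for 23 of the 28 tested target genes (82.1%), and for 40.3% of all genes tested. For the 59 tested regulators the count was 26 (44.1%), a share near that of all genes. Among the members it was the lowest for RELB, NFKB2, NFKBIA, REL and IKBKB, and the highest for 3, CHUK, NFKBIB and NFKBIE. RELA and NFKB1 in that library lay between the other untreated ones. These counts were made after the values were seen and have no test.

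**Figure D5:**
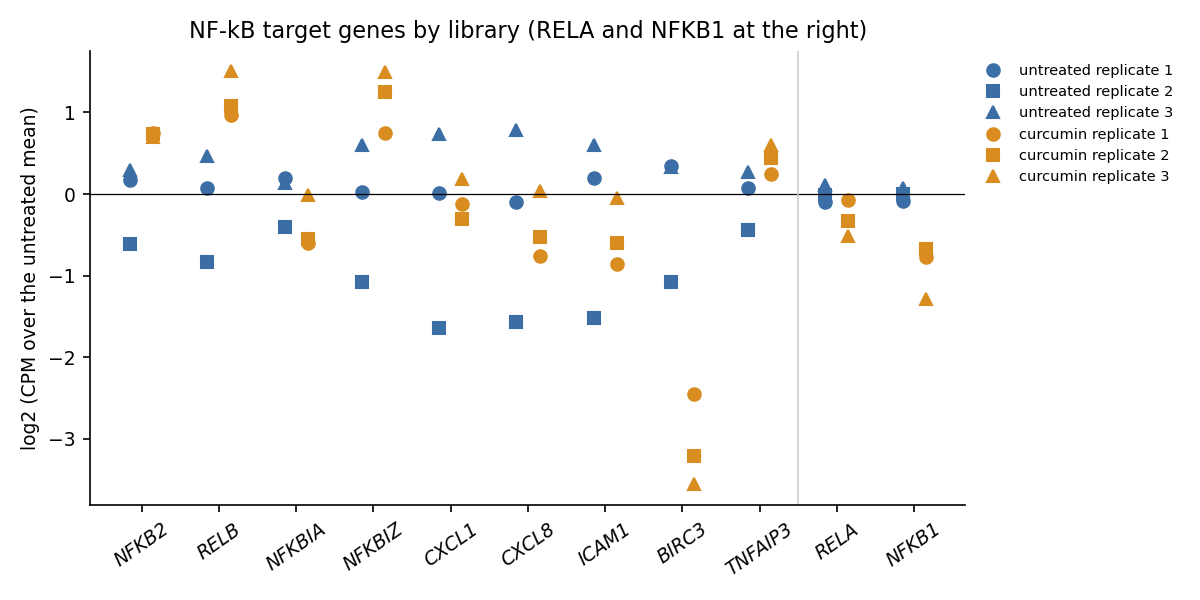
Log2 of the CPM in each library over the mean of the 3 untreated libraries, for NFKB2, RELB, NFKBIA and 6 other textbook targets, with RELA and NFKB1 for comparison. Untreated replicate 2 (blue squares) is the lowest untreated library for the 9 target genes shown first, which are a selection. Of the 28 target genes tested it was the lowest for 23. It was not the lowest for NFKB1, itself a textbook target, nor for SOD2 and CD83, which are not shown. BIRC3 is lower in every treated library than in any untreated one.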

How the data were processed

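RNA was sequenced from 3 untreated and 3 curcumin-treated libraries of HCT116 cells, prepared with a SMARTer mRNA-Seq kit per the labels' protocols. The authors deposited 1 table of estimated counts per gene, not scaled between libraries. Aligner, counting tool, annotation and strand setting: not given in the sources used here. Mouse builds (GRCm38, mm10) stand in the submitters' processing notes, yet all 35106 rows carry human identifiers, 35003 of them in GENCODE 29, from which positions and transcript lengths were taken.

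Counts were rounded, filtered with filterByExpr (at least 10 counts, 15 in total), TMM-scaled and tested with edgeR 4.0.16 (R 4.3.3) on all 6 libraries. A standard error is the log2 fold change over the root of its F statistic. Alternatives were RLE factors, library size alone or less its 100 most abundant genes, all genes kept, only genes with a mean of 50 counts, DESeq2 1.42.0, limma-voom (limma 3.58.1), a replicate block, removal of a loess length trend (span 0.3) over protein-coding genes, and each library left out. Ratios used counts plus 0.5. A floor of 3 counts came to 0.114 to 0.238 CPM, for counting error only.

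Members and lists (pathway regulators, target genes, epithelial and other cell type markers) were chosen with earlier results of these data known. Named genes are the members, 19 genes fixed by symbol, at most 2 rising and 2 falling genes per list (lowest adjusted p), and the 3 genes most like the called member that changed most. SIRT2, ERLIN1, the marker genes named and the genes of the closing section were picked after their values were seen. SOD2 has 2 rows, and that with the lower identifier was used. LTA was not analysed here. The kappaB consensus was searched on both strands of RefSeq windows (GRCh38.p14).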

Additional observations from a re-analysis of the deposited data

How the results depend on the processing

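NFKB1 and NFKBIB kept direction and call in all 15 alternatives. With library size alone, 1320 genes were higher (9.62%) and 7744 lower (56.5%). The members then gave 1 higher and 6 lower, regulators 0 and 40, and targets 0 and 16. This scaling moved the median log2 fold change of all genes by −0.80. When library sizes left out the 100 most abundant genes, 5 members were lower, 6 regulators higher, and 1 target higher and 11 lower. With 1 library left out, members lower ranged from 1 (without curcumin replicate 1 or 2) to 3 and targets higher from 3 to 8, with regulators higher 8 to 13 and targets lower 4 to 9. Signs turned for REL (0.057, length trend removed), NFKB2 (−0.071, library size alone), NFKBIE (−0.48 with library size alone and −0.032 without the top 100) and IKBKB (0.18, length trend removed, and −0.22 to 0.098 with 1 library left out). They also turned for MAP3K7 (0.12) and SOD2 (0.67, called higher) with the length trend removed, and for TNFAIP3 (−0.37, library size alone). CXCL1 turned with the replicate block (0.17) and limma-voom (0.20), and ran from −0.50 to 0.50 with 1 library left out, and CXCL8 from −0.81 to 0.25. The difference in the NFKBIA to RELA ratio ran from −0.35 to 0.17. The cause was not tested.

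Same-numbered libraries were not shown to be paired: their deviations correlated at 0.040, 0.023 and 0.11. Each treated library, and untreated replicates 1 and 3, correlated best with its own number. Untreated replicate 2 correlated best with curcumin replicate 1 (0.039). With the replicate number as a block 3683 genes were higher and 4011 lower, and of the members CHUK alone lost its call. Genes at a few counts per library, most chemokines and cytokines among them, could not be tested at this depth.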

Other observations

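A few genes of the pathway outside the naming rule, chosen after their values were seen, showed large differences. TLR3, a sensor of double-stranded RNA, had 58, 54 and 33 counts in untreated and 0, 0 and 2 counts in treated libraries (edgeR adjusted p = 0.0011). TNF, the cytokine that starts canonical NF-kB signalling, had no count in the 3 untreated libraries and 70, 0 and 80 counts in curcumin replicates 1, 2 and 3. It did not pass the filter on low counts, and has no test. The death-domain adaptor TRADD fell from 24.4 to 11.9 CPM and the kinase RIPK1 from 36.2 to 17.03 CPM (edgeR adjusted p = 0.0049 and 0.00051). IRAK1, a kinase of interleukin-1 receptor signalling, rose from 132 to 225 CPM (edgeR adjusted p = 0.0018), and was not called higher under library size alone.

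The interleukin and lipid mediator genes were low. IL6 had 1 count in all, and PTGS2, which encodes cyclooxygenase-2, rose from 2.56 to 5.80 CPM (edgeR adjusted p = 0.043). PTGS2 had 30 counts in untreated replicate 2 against 64 and 102 in the other untreated libraries. LCN2 rose from 1.68 to 5.10 CPM (edgeR adjusted p = 0.041), with 9 counts in untreated replicate 2 against 43 and 77 in the other untreated libraries. Neither PTGS2 nor LCN2 was called higher under library size alone or when the 100 most abundant genes were left out of it.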
